A study of Mus musculus with 3 samples.

Results

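The acute-phase response is the rise of a set of secreted proteins during infection or injury. Liver cells make most of the circulating forms, and many other cells make some of the same proteins locally. Their genes are induced through NF-kB and C/EBP factors downstream of interleukin 1, tumour necrosis factor and bacterial lipopolysaccharide (LPS), and through STAT3 downstream of interleukin 6. In the vessel wall these products bind iron carriers, lipids and proteases, and they coat microbes or alter how leukocytes and endothelium behave.

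The 9 genes described here were taken by their symbols from a list of secreted acute-phase proteins: Lcn2, Saa3, Ptx3, Serpina3n, Serpina3f, Serpina3g, Lrg1, Hp and Slpi. All 9 were among the 32285 genes of the deposited tables. All 9 had at least 1 unique molecular identifier (UMI, one counted RNA molecule) in the LPS library and in control replicate 2, and 6 of 9 had one in control replicate 1.

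Cells were dislodged from the lesser-curvature intima of the aortic arch of C57BL/6J wildtype mice, aged 12 to 13 weeks, with male and female animals pooled. The 2 control libraries came from untreated mice, and the 1 LPS library came from mice given 30 µg of ultrapure LPS intravenously 18 h before harvest. Each library pooled 5 to 10 mice, all tissue was perfused and dissected with the transcription inhibitor actinomycin D and digested with collagenase D and DNase I, and 10x 3' v3 droplets were used. The labels do not number the controls, so they are named in record order, and with 1 LPS pool every p-value assumes that the LPS library varies like the controls.

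The libraries held 1269, 4813 and 6000 barcodes (control replicate 1, control replicate 2, LPS) with 4940996, 20069697 and 21864072 UMIs. After filtering, 429, 2693 and 5156 barcodes were kept, and cell classes were rebuilt by clustering without the 9 genes. The libraries stood apart in quality: haemoglobin genes took 44.0%, 7.91% and 25.2% of UMIs, and the ribosomal-RNA-rich transcript Gm42418 took 9.81%, 1.59% and 28.6%. In the LPS library 3348 of the 5156 kept barcodes were near-empty, against 5 and 1 in the controls. Library pairs shared 2, 1 and 6 barcode sequences. Of the tested classes, the endothelial-like held 77, 141 and 199 cells and the phagocyte-like (macrophages, monocytes and dendritic cells) 81, 211 and 367. The fibroblast-like class held 24, 76 and 219, and the lymphoid-like (T, NK and ILC) held 161, 1667 and 104. The median share of Gm42418 was 25.8%, 2.61% and 18.1% in endothelial-like, 23.9%, 2.45% and 39.3% in phagocyte-like and 34.0%, 2.97% and 40.4% in fibroblast-like cells, and its part in the results was not tested beyond the restriction given with the counts of calls. All 11 endothelial markers, all 9 fibroblast markers and all 10 macrophage markers were detected in their own class in each library. LPS and control cells of the endothelial-like and fibroblast-like classes lay in different sub-clusters, as did most phagocyte-like cells, so state and library cannot be told apart there.

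In the mm10 annotation (GENCODE M21) Lcn2 lies at chr2:32384633-32388252 and Slpi at chr2:164354070-164389095, both on the minus strand. Ptx3 is at chr3:66219910-66225805 on the plus strand, Saa3 at chr7:46711998-46715700, Hp at chr8:109575128-109579172 and Lrg1 at chr17:56119678-56122001, the last 3 on the minus strand. The serpins lie in 1 run of paralogues on the plus strand of chromosome 12, with Serpina3f at chr12:104214544-104221129, Serpina3g at chr12:104236245-104241939 and Serpina3n at chr12:104406729-104414329. The last 500 bases of these serpin transcripts were nearly all distinct: 5 of 451 words of 50 bases of Serpina3f and 11 of 451 of Serpina3g also occur in the other, and none of Serpina3n occurs in a paralogue.

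Promoter windows of 250 bases before to 50 after the start site were matched in RefSeq (GRCm38.p6) for 8 of the 9 genes. They are shown for 5 of the 6 genes (all but Slpi) whose windows hold a match to the NF-kB or C/EBP motif, of the routes named above. Capitals mark NF-kB and C/EBP matches on either strand and leave STAT and interferon-response matches in lower case, 5′ to 3′ in the direction of the gene. The Lcn2 window is chr2:32387690-32387989, minus strand, Saa3 chr7:46715627-46715926, minus strand, Ptx3 chr3:66219637-66219936, plus strand, Serpina3f chr12:104214294-104214593, plus strand, and Serpina3g chr12:104235897-104236196, plus strand.
Lcn2: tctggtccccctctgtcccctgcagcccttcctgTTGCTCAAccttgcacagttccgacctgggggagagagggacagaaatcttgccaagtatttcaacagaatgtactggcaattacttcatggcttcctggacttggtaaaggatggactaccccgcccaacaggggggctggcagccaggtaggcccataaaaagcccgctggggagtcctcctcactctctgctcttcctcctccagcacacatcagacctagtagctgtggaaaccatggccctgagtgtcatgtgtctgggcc
Saa3: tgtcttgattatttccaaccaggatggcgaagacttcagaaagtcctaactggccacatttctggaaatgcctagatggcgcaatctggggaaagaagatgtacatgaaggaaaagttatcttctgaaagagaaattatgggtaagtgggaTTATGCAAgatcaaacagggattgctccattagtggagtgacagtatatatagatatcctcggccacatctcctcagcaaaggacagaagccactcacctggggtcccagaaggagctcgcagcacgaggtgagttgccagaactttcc
Ptx3: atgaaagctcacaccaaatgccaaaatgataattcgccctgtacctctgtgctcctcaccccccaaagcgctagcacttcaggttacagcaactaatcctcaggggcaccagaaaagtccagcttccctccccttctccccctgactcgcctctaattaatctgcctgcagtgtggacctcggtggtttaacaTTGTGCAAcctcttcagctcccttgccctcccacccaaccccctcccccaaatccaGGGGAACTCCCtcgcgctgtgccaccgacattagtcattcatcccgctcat
Serpina3f: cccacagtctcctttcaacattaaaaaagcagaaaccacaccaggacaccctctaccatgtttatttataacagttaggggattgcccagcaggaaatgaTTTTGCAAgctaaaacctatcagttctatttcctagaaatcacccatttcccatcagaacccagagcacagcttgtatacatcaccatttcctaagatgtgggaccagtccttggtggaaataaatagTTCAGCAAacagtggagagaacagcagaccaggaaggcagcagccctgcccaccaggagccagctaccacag
Serpina3g: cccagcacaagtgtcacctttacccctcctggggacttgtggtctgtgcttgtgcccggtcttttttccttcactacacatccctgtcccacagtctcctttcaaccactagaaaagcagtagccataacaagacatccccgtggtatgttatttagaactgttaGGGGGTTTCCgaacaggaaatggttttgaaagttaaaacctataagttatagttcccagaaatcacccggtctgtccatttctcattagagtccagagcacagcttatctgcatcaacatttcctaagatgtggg

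The C/EBP motif was TTGCNNAA, the STAT motif TTCNNNGAA and the interferon-response motif GAAA, 2 free bases and GAAA again, and the NF-kB motif was the general kappa-B consensus. All were searched on both strands. A C/EBP match was found in the windows of 5 of 8 members, against 10.81% of 32817 windows of this length. An NF-kB match was found in 2 of 8 (Ptx3 and Serpina3g), against 8.459%. Ptx3 holds 2 overlapping NF-kB matches, shown as 1 run. A STAT match was found in 2 of 8 (Serpina3f and Serpina3g), against 8.294%, and an interferon-response match in 1 of 8 (Saa3), against 3.431%. A match describes the letters in the window and says nothing of binding.

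A droplet also catches free RNA from broken cells, so the level of each gene was first read in 2 reference classes. Levels are given as UMIs per barcode or as counts per 1000000 UMIs of the class (CPM). In the LPS library lymphoid-like cells (median depth 4802 UMIs) and erythroid-like barcodes (median 8264 UMIs) each carried 2.67 Lcn2 UMIs per barcode. Saa3 stood at 0.90 and 0.96 per barcode in these classes, Ptx3 at 0.14 and 0.12, and Hp at 0.38 and 0.36. Serpina3g and Serpina3f were the exceptions, with 0.34 against 0.081 and 0.15 against 0.052 per barcode, and B-like cells carried 1.78 Serpina3g and 0.72 Serpina3f. So 89.4% of lymphoid-like cells had a Lcn2 UMI, and a share of positive cells cannot by itself mark a source in this library. Sources below are classes of at least 20 cells whose level was at least 2-fold over the free-RNA reference with a 95% counting interval above 1. The intervals cover counting error only and treat cells as one pool, not as replicates. Near-empty barcodes were not used as a reference. Their median was 4 Lcn2 UMIs, against 2.5 in lymphoid-like cells and 2 in erythroid-like barcodes. Of the UMIs in kept barcodes of the LPS library they held from 4.11% (Slpi) to 44.0% (Serpina3f), with Lcn2 at 23.0% and Serpina3n at 32.9%. Sources were not counted against the near-empty level. Of 54 pairs of a gene and a class, 31 met this rule against lymphoid-like cells in CPM. Against erythroid-like barcodes 26 did, and 31 did against lymphoid-like cells per barcode. On all 3 scales 26 pairs did and on none 22. A separate free-RNA estimate was subtracted in 1 alternative below. For each gene and library it took the lowest mean UMIs per barcode among the other classes of at least 20 barcodes. It is therefore a low estimate and can leave free RNA behind.

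**Figure D1:**
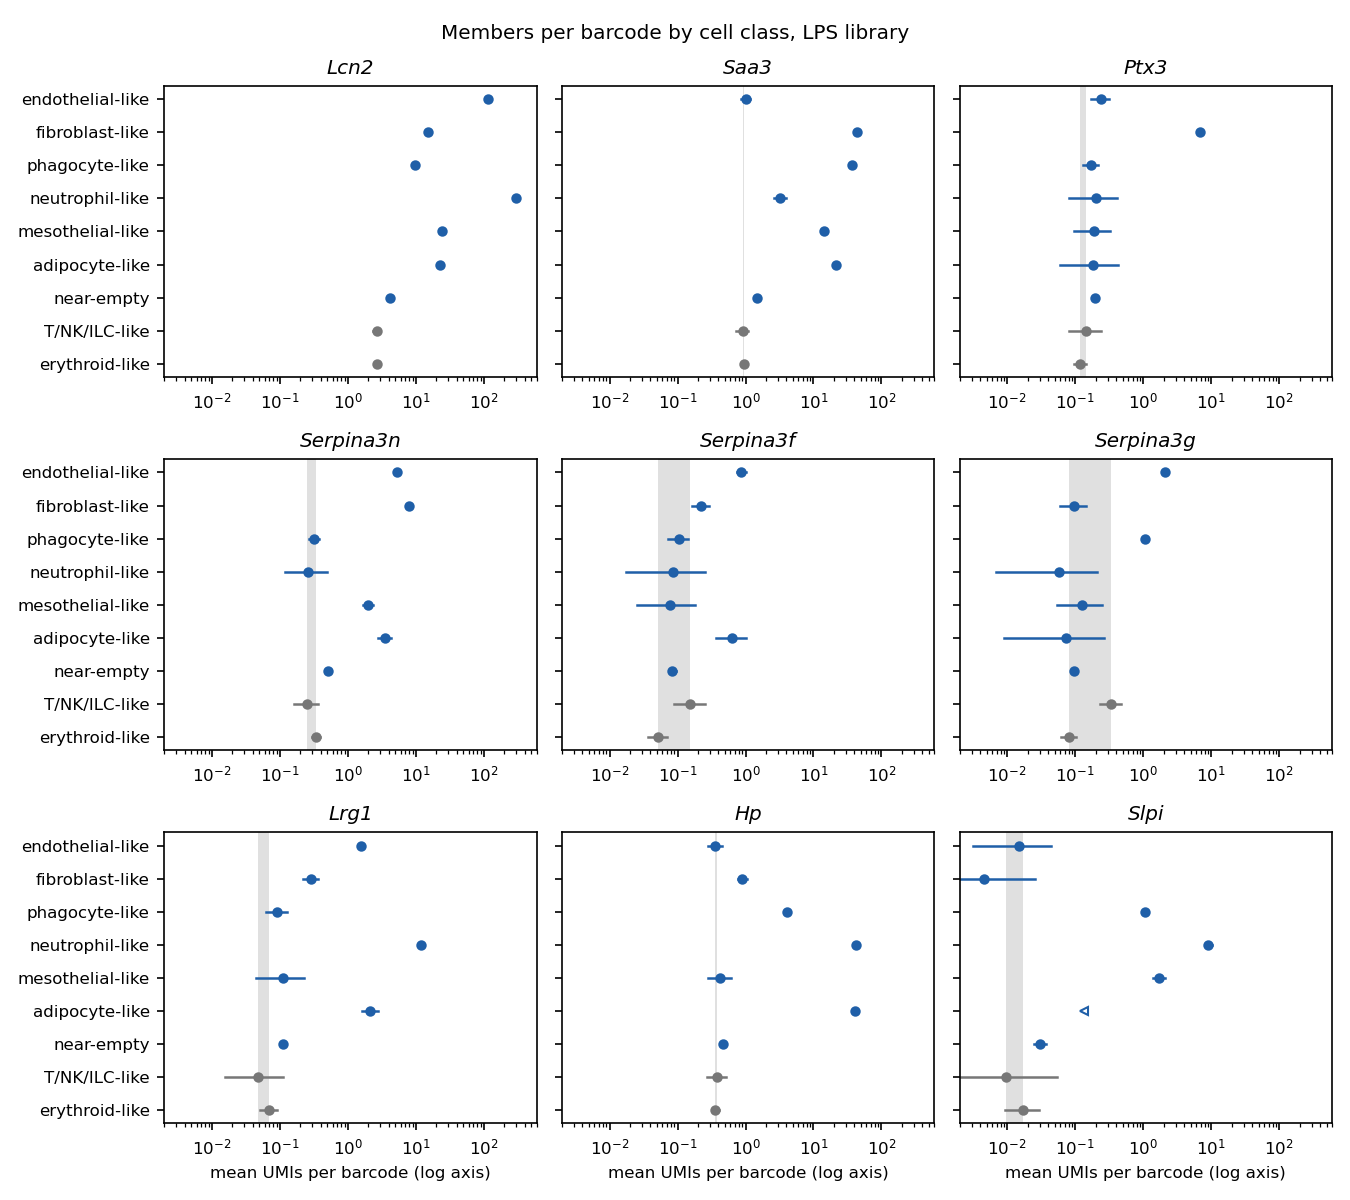
Mean UMIs per barcode (log axis) of each gene by cell class in the LPS library, with exact 95% Poisson intervals; grey points are the free-RNA references, the grey band spans them, and an open triangle is the upper limit for a class with 0 UMIs. Lcn2 stood at 113 per endothelial-like cell and 300 per neutrophil-like cell against 2.67 in both references, and Saa3 at 1.00 per endothelial-like cell against 43.3 per fibroblast-like cell.

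Lcn2 encodes lipocalin 2, which binds bacterial siderophores and so withholds iron. Endothelial-like cells held 0 and 1 UMIs in the controls and 22575 in the LPS library, or 0, 1.44 and 12418 CPM. The ratio of the LPS library to the pooled controls was 13048 (95% counting interval 2342 to 515390), and Lcn2 rose in edgeR's quasi-likelihood test (adjusted p = 1.1e-113). Every one of the 199 LPS endothelial-like cells carried Lcn2, with 1 UMI at the lowest, 22 at the median and 1373 at the highest.
Thinned to 1000 UMIs per cell, 94.0% of endothelial-like cells and 42.3% of lymphoid-like cells still carried it, and no barcode of this library was too shallow to thin. Sub-cluster 11.1 (61 cells, led by Ccl2, Selp, Csf3 and Sele) held 19026 of the class's Lcn2 UMIs, at 16385 CPM. Sub-clusters 11.0 (105 cells) and 11.2 (33 cells) had 4573 and 10093 CPM, and all 3 lay over the 463 CPM of lymphoid-like cells. The median depth was 16631 UMIs in sub-cluster 11.1 against 4128 and 2758.

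The LPS endothelial-like cells carried 17 S100a8 and 24 S100a9 UMIs in all, 0.085 and 0.12 per barcode, near the 0.067 and 0.11 of lymphoid-like cells. Neutrophil-like cells carried 1247 and 1505 per barcode of these neutrophil genes beside 300 Lcn2 UMIs. The summed neutrophil markers came to 0, 2.87 and 28.6 CPM in the endothelial-like cells, with 0, 2 and 7 of 9 markers detected. Dcn, a fibroblast gene, stood at 8.37 UMIs per LPS endothelial-like cell against 0.77 in lymphoid-like cells. The summed fibroblast markers (9 of 9 detected in each library) were at 1130, 2136.5 and 1178 CPM in endothelial-like cells, so the LPS library lay between the controls. In fibroblast-like cells of the LPS library Dcn was at 30.4 and Lcn2 at 14.9 per cell, whereas endothelial-like cells had 8.37 and 113. The part of the fibroblast RNA in the Lcn2 of endothelial-like cells was not tested.

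Lcn2 also lay over the free-RNA level on every scale in fibroblast-like (14.9 per barcode), mesothelial-like (24.3), adipocyte-like (22.6) and neutrophil-like cells (300), and not on every scale in phagocyte-like cells (9.57). Fibroblast-like and phagocyte-like cells had 0 Lcn2 UMIs in both controls and 3253 and 3512 in the LPS library, which puts the rise at 621-fold or more and 746-fold or more against a limit of 3 UMIs over the controls. Lcn2 rose in both (adjusted p = 4.55e-53 and 7.6e-07, edgeR). Most cells of both classes lay near the free-RNA level. The LPS medians were 5 UMIs in fibroblast-like and 3 in phagocyte-like cells, against 2.5 in lymphoid-like and 4 in near-empty barcodes. At least 10 UMIs were found in 44 of 219 fibroblast-like and 35 of 367 phagocyte-like cells. In the 35 neutrophil-like cells of the LPS library Lcn2 ran from 3 through a median of 262 to 935 UMIs per cell. Beside the phagocyte-like values, the summed neutrophil markers stood at 19.4, 15.4 and 480.1 CPM (2, 2 and 8 of 9 detected) in that class. The monocyte markers were at 1216, 494 and 2961 CPM. The part of neutrophil RNA in its results was not tested. That of monocytes was not tested beyond the restriction to macrophage-named sub-clusters, given with the processing alternatives.

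Saa3 encodes a serum amyloid A made outside the liver, a lipid-binding protein. Fibroblast-like cells held 0 and 1 Saa3 UMIs in the controls and 9487 in the LPS library, a ratio of 5429 (974 to 214468, counting interval). Phagocyte-like cells held 0, 1 and 13594, a ratio of 8666 (1555 to 342309). Saa3 rose in both classes (adjusted p = 5.91e-63 and 7.6e-07, edgeR).
Both classes were uneven inside. Of the 219 fibroblast-like cells, the 31 of sub-cluster 8.1 (led by Angptl7, Mmp3 and Prg4) held 6857 Saa3 UMIs, or 221 per cell, against 14.0 per cell in the 188 of sub-cluster 8.0. Their median depths were 8372 and 2129 UMIs. Of the 367 phagocyte-like cells, the 27 of sub-cluster 19.0, named monocyte from its markers (Ly6c2, Plac8), held 8502 of the 13594 Saa3 UMIs, 315 per cell at a median depth of 16427 UMIs. With macrophage-named sub-clusters alone, a restriction chosen after seeing the data, Saa3 still rose in phagocyte-like cells (adjusted p = 3.47e-06).

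In endothelial-like cells Saa3 stayed near the free-RNA level. They held 1, 0 and 199 Saa3 UMIs, a ratio of 115 (20.4 to 4566), and Saa3 rose (adjusted p = 1.06e-15). The level was 1.00 per barcode, 1.11 times that of lymphoid-like cells (0.861 to 1.43), no cell had more than 7 UMIs, and with the free-RNA estimate subtracted Saa3 was no longer tested. Adipocyte-like cells (21.4 per barcode) and mesothelial-like cells (14.2) were over the free-RNA level on all 3 scales.

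**Figure D2:**
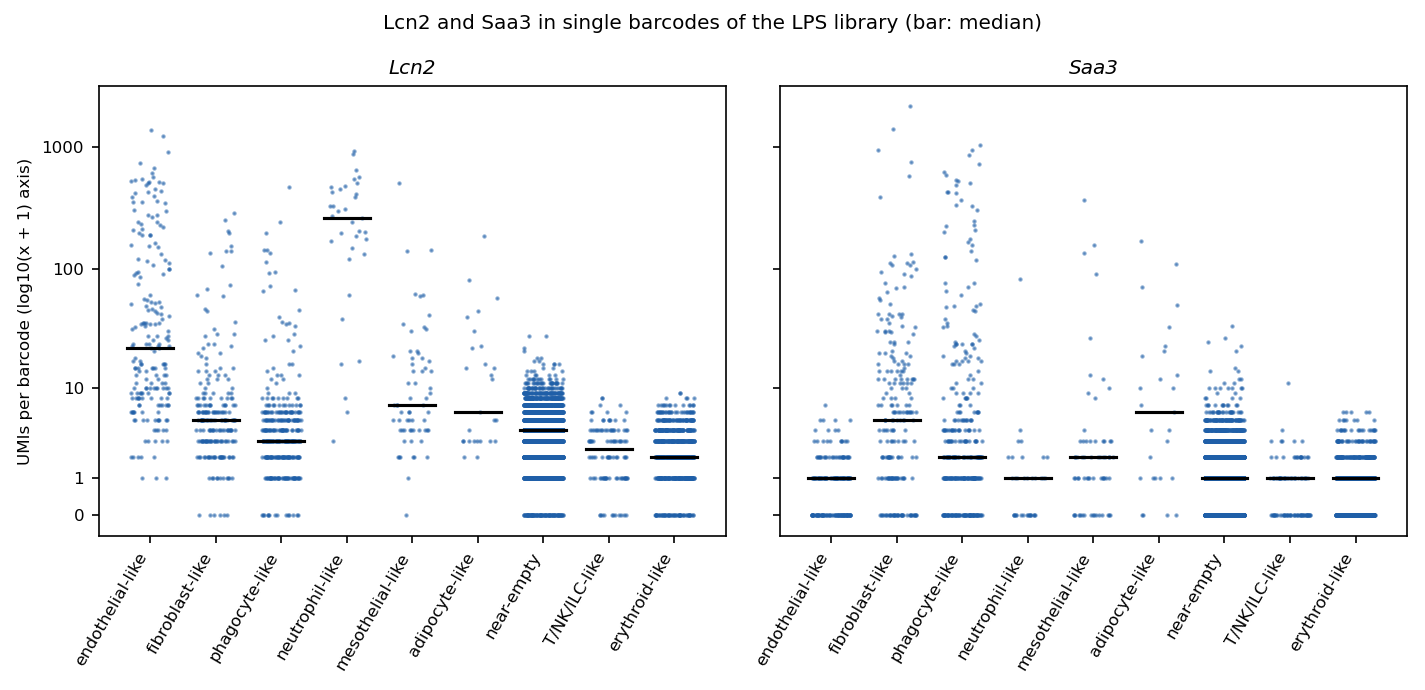
Lcn2 and Saa3 UMIs in each barcode of the LPS library by class, on a log10(x + 1) axis, with a bar at the median. Lcn2 spans 1 to 1373 in endothelial-like cells and 0 to 9 in erythroid-like barcodes, and Saa3 reaches 2152 in fibroblast-like cells and 7 in endothelial-like cells.

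Ptx3 encodes pentraxin 3, a long pentraxin that binds microbes and complement components. Fibroblast-like cells had 0 UMIs in both controls and 1512 in the LPS library, at least 288-fold over the limit of 3 control UMIs, and Ptx3 rose (adjusted p = 3.25e-41, edgeR). This was the single class over the free-RNA level on all 3 scales, at 6.90 UMIs per cell. Sub-cluster 8.1 held 1293 of those UMIs, 41.7 per cell, with Ptx3 in 90.3% of its cells, against 1.16 per cell and 38.3% in sub-cluster 8.0. Ptx3 was also called higher in endothelial-like cells (0, 0 and 47 UMIs, adjusted p = 0.000794) and phagocyte-like cells (0, 0 and 63, adjusted p = 0.00417), at 1.64 (0.900 to 3.15) and 1.19 (0.670 to 2.25) times the lymphoid-like level per barcode.

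The Serpina3 genes are the mouse paralogues of the antichymotrypsin gene, a secreted or intracellular serine protease inhibitor family. Serpina3n, the best known secreted member, was at 72.9, 47.0 and 2061 CPM in fibroblast-like cells, the only class of the tested 4 with more than 6 control UMIs in a library. The fitted log2 change was 5.70 ± 0.49 (SE) with adjusted p = 9.76e-28, higher in the LPS library than in either control. In endothelial-like cells it went from 0 and 8.62 to 584 CPM (log2 change 6.70 ± 0.55, adjusted p = 1.74e-30).
The LPS levels were 7.98 UMIs per fibroblast-like cell and 5.33 per endothelial-like cell against 0.25 in lymphoid-like cells. Adipocyte-like cells (94 UMIs in 27 cells) also met the source rule on all 3 scales. In CPM they stood at 24.0 times the lymphoid-like level, between fibroblast-like (47.6) and endothelial-like cells (13.5). Phagocyte-like cells held 0, 1 and 117 UMIs, a ratio of 74.6 (13.1 to 2971), and Serpina3n was called higher (adjusted p = 9.18e-05) at 1.28 times the lymphoid-like level per barcode (0.828 to 2.03). Sub-cluster 8.1 again carried most of the fibroblast-like signal, 1308 of 1748 UMIs.

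Serpina3f and Serpina3g, which encode less studied, partly intracellular inhibitors, were highest per barcode in endothelial-like cells among the classes of at least 20 cells. In CPM, Serpina3f was higher in adipocyte-like cells (17 UMIs in 27 cells), at 7.05 times the lymphoid-like level against 3.55 in endothelial-like cells. Both classes met the source rule for Serpina3f on all 3 scales. Serpina3f had 0, 0 and 172 UMIs there, 33.1-fold or more (adjusted p = 2.97e-16). Serpina3g had 1, 15 and 422 UMIs, or 3.78, 21.6 and 232 CPM (log2 change 4.0 ± 0.48, adjusted p = 1.83e-14). Serpina3g also rose in phagocyte-like cells, from 0 and 4 to 388 UMIs (log2 change 5.96 ± 0.74, adjusted p = 1.21e-05), where a single cell held 97. In fibroblast-like cells Serpina3g had 0, 2 and 21 UMIs, too few to test. Serpina3f rose in fibroblast-like cells (0, 0 and 48 UMIs, adjusted p = 0.000355) and was not called with the free-RNA estimate subtracted (adjusted p = 0.148), where its fitted log2 change was 7.23 against 7.66, both dependent on the prior count. Its fibroblast-like level met the source rule only against lymphoid-like cells in CPM. In phagocyte-like cells (0, 0 and 38 UMIs) Serpina3f did not pass (adjusted p = 0.0762), but it passed in 4 of the 8 settings that tested it, with adjusted p from 0.0022 to 0.273. Its LPS level in phagocyte-like cells was 0.799 times that of lymphoid-like cells in CPM and met the source rule on none of the 3 scales. Across the 199 LPS endothelial-like cells, log levels of Serpina3f and Serpina3g gave r = 0.557, a description over cells that share depth.

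Slpi encodes a small secreted inhibitor of neutrophil proteases. Phagocyte-like cells had 2, 3 and 390 UMIs (log2 change 5.50 ± 0.72, adjusted p = 2.29e-05), of which sub-cluster 19.0 held 357. Endothelial-like and fibroblast-like cells carried 3 and 1 UMIs in the LPS library and 0 in both controls. Neutrophil-like cells (9.09 per barcode) and mesothelial-like cells (1.72) lay over the free-RNA level on all 3 scales, and in the mesothelial-like class 1 cell held 72 of 110 UMIs. The whole library of control replicate 2 carried 1220 Slpi UMIs, 1185 of them in 1 barcode. That barcode lay in the unnamed sub-cluster 19.1, whose highest marker score was macrophage (3.855). The 5 LPS barcodes of sub-cluster 19.1 held 1520 Slpi UMIs, 977 and 530 of them in single barcodes. These phagocyte-like counts leave sub-cluster 19.1 out. At a limit of 25% mitochondrial UMIs the cells were clustered anew. There a Cxcl13-led sub-cluster of 20 LPS barcodes was named monocyte and so counted as phagocyte-like. In that setting Slpi was not called in phagocyte-like cells (log2 change 1.08, adjusted p = 0.620, edgeR). Whether the barcode with 1185 Slpi UMIs entered the class there was not checked.

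**Figure D3:**
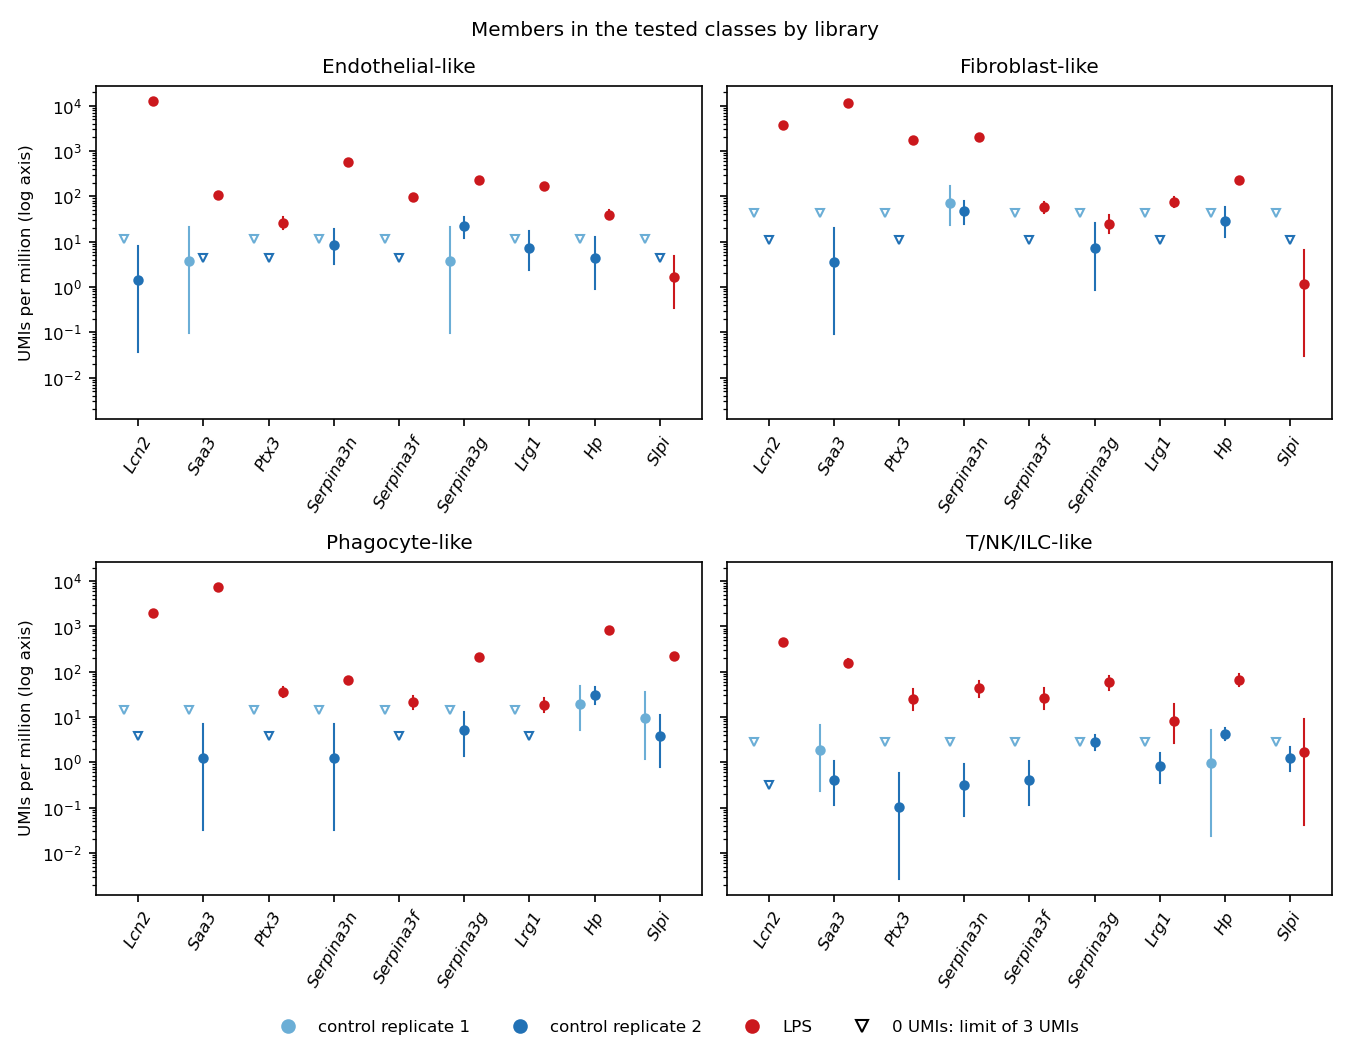
CPM (log axis) of each gene in the 4 tested classes by library, with exact 95% Poisson intervals; open triangles mark 0 UMIs at the limit of 3 UMIs. In endothelial-like cells Lcn2 stands at 12418 in the LPS library and 1.44 in control replicate 2, and Slpi stands at 1.65 in the LPS library.

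Lrg1 encodes a leucine-rich secreted glycoprotein linked to endothelial TGF-beta signalling. In endothelial-like cells it had 0, 5 and 310 UMIs, or 0, 7.18 and 171 CPM (log2 change 5.16 ± 0.57, adjusted p = 2.92e-17), and sub-cluster 11.1 held 260 of the 310. Neutrophil-like cells carried 11.8 per barcode and adipocyte-like cells 2.15, against 1.56 in endothelial-like and 0.048 in lymphoid-like cells. Lrg1 rose in fibroblast-like cells (0, 0 and 63 UMIs, adjusted p = 4.14e-06) and did not pass in phagocyte-like cells (0, 0 and 33, adjusted p = 0.142). Its fibroblast-like level met the source rule against lymphoid-like cells but not against erythroid-like barcodes, and its phagocyte-like level met it on no scale.

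Hp encodes haptoglobin, which binds free haemoglobin. Phagocyte-like cells held 4, 24 and 1521 UMIs, or 19.4, 30.8 and 852 CPM. Hp rose there (log2 change 5.16 ± 0.67, adjusted p = 2.29e-05), and the 32 cells of the monocyte-named sub-clusters 19.0 and 19.2 held 911 and 381 of the 1521 UMIs. Adipocyte-like cells (27 cells, 40.6 per barcode) and neutrophil-like cells (35 cells, 42.9) had the highest levels, and over the 35 neutrophil-like cells log levels of Hp and Lcn2 gave r = 0.809, a description. In endothelial-like cells Hp was called higher (0, 3 and 72 UMIs, a ratio of 13.9 with counting interval 4.56 to 68.8, adjusted p = 7e-05), at 0.941 times the lymphoid-like level per barcode (0.631 to 1.42). Hp rose in fibroblast-like cells too (0, 8 and 197 UMIs, log2 change 3.86 ± 0.57), to 0.90 per barcode. That level met the source rule against lymphoid-like cells but not against erythroid-like barcodes.

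**Figure D4:**
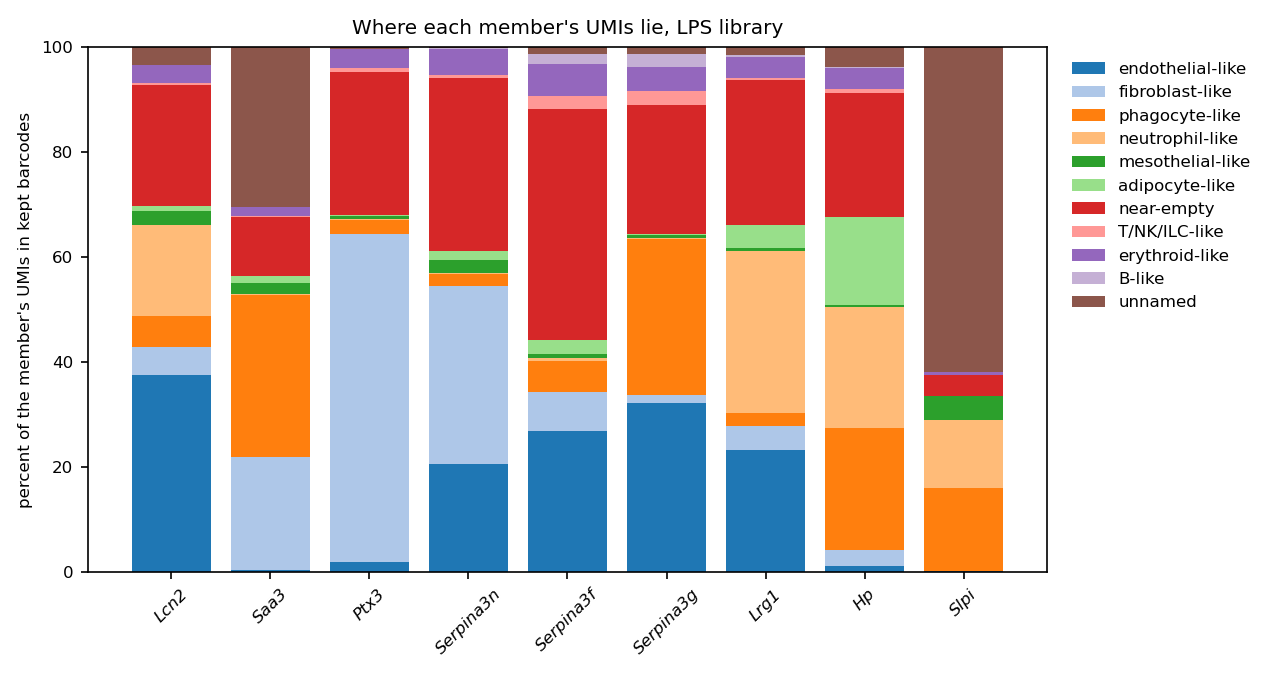
Percent of each gene's UMIs in kept barcodes of the LPS library that lies in each class. Endothelial-like cells hold 37.5% of Lcn2, fibroblast-like cells 62.5% of Ptx3, and unnamed barcodes 61.8% of Slpi and 30.5% of Saa3.

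Of the 9 members, 8 were tested in endothelial-like cells and were called higher, where 7.06% of all 8940 genes tested were higher, 6.88% lower and 13.9% called either way (edgeR's quasi-likelihood test, adjusted p under 0.05). In phagocyte-like cells all 9 were tested and 7 called higher, against 2.54% of genes higher, 0.872% lower and 3.41% either way. In fibroblast-like cells 7 of the 9 were tested and were called higher, against 8.27%, 5.06% and 13.3%. Members at 0 or 1 control UMIs pass the low-count filter only through the LPS library, so these counts are partly fixed by the filter and are given as a description. With no filter Slpi was tested and not called in endothelial-like cells (adjusted p = 0.745), nor were Serpina3g (adjusted p = 0.227) and Slpi (adjusted p = 0.799) in fibroblast-like cells. No tested member fell in these classes. With the free-RNA estimate subtracted, 5 members were tested and called in endothelial-like cells, beside 359 of 8540 genes higher, and 6 of 7 in fibroblast-like cells, beside 208 of 4600. In phagocyte-like cells 0 of 6 were called and no gene passed, while the log2 changes of Serpina3g, Hp and Slpi were 6.02, 4.83 and 5.20 against 5.96, 5.16 and 5.50 before. Among barcodes under 20% Gm42418, 7 of 8 tested members were called in endothelial-like cells, beside 546 of 8946 genes higher, and 5 of 6 in phagocyte-like cells, beside 51 of 8792. In fibroblast-like cells 0 of 7 were called and no gene passed, while the log2 changes of Serpina3n and Hp were 6.49 and 3.01 against 5.70 and 3.86. In lymphoid-like cells 1 of 7, Lcn2, was called (0, 0 and 278 UMIs, adjusted p = 0.0471) against 0.156%, at the same 2.67 per barcode as erythroid-like barcodes. Over all kept barcodes 9 of 9 were called against 14.5%. Genes higher and lower numbered 224 and 77 in phagocyte-like cells but 277 and 156 with DESeq2 size factors. Without TMM the 446 and 273 of fibroblast-like cells became 214 and 391, and the 2130 and 1550 over all barcodes became 843 and 6899. Slpi was the weakest of these, at 17.7, 64.2 and 208 TMM-scaled CPM (log2 change 2.29 ± 0.54, adjusted p = 0.0163), and it was not called without the unnamed barcodes (adjusted p = 0.0594) or by DESeq2's Wald test (adjusted p = 0.314). The median log2 change of the members was 6.67 in endothelial-like, 7.18 in phagocyte-like and 8.05 in fibroblast-like cells, beside -0.01, -0.03 and 0.03 over all genes tested. Many of these fitted values rest on control counts of 0 and depend on the prior count.
The size of the response was then compared between classes by an interaction term. Of 25 tests of a member between endothelial-like and another class, 0 passed after adjustment in edgeR. Of all genes, 0.711% passed after adjustment against phagocyte-like, 0.835% against fibroblast-like and 0% against lymphoid-like cells. An unadjusted p under 0.05 was reached in 3 of the 25, and the share of all genes at that level was not counted. Those 3 were Saa3 in endothelial-like minus phagocyte-like cells (-6.12 ± 2.94 on the log2 scale, adjusted p = 0.732), Saa3 minus fibroblast-like cells (-5.55 ± 2.23, adjusted p = 0.635) and Serpina3g minus phagocyte-like cells (-2.18 ± 1.06, adjusted p = 0.760). Ptx3 and Serpina3f had 0 control UMIs in endothelial-like, phagocyte-like and fibroblast-like cells. Without a control count in either class of such a pair the size of the response is not set, so these tests could not pass. A difference between classes in the response was therefore not shown, and for these genes the test could not decide.

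Of 34 other acute-phase protein genes, 15 were tested in endothelial-like cells, and 11 rose and 3 fell, beside 7.06% and 6.88% of all genes. As with the members, genes with few control UMIs pass the low-count filter only through the LPS library. The list counts here and below are thus partly fixed by the filter and are given as a description. The source rule was applied to the members only. A rise of a list gene in a class, here or below, therefore does not mark that class as its source. Mt2, a metallothionein that binds zinc, was at 19.5, 24.7 and 5659 TMM-scaled CPM, and Mt1 at 117, 139 and 9539. Lbp, the LPS-binding protein gene, had 1, 2 and 409 UMIs (ratio 78.8, 26.8 to 384) and the complement gene Cfb 0, 4 and 453. Serpina1b, Serpina1d and Serpina1e, paralogues of the alpha-1-antitrypsin gene whose reads cannot be cleanly told apart, fell from 7 and 39, 3 and 36, and 7 and 46 control UMIs to 4, 2 and 3. The liver-type serum amyloids Saa1 and Saa2 had 1 and 0 UMIs in LPS endothelial-like cells and 26 and 21 in fibroblast-like cells. In phagocyte-like cells 8 of 15 rose, beside 2.54% of all genes, and none fell, led by Cfb, Mt2, Il1rn and Timp1, and in fibroblast-like cells 7 of 10 rose, beside 8.27%, with Mt2 and Mt1 first.

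Among 22 inducing cytokines and receptors, 8 of 14 tested rose in endothelial-like cells, 2 of 17 in phagocyte-like and 6 of 11 in fibroblast-like cells, beside 7.06%, 2.54% and 8.27% of all genes. Il6, the main inducer of the response, had 0 control UMIs in the 3 classes and 138, 54 and 54 in the LPS library, and rose in each. Whether these Il6 levels lay over the free-RNA level was not tested. Of 23 transcription factors and feedback genes, 13 of 21, 4 of 22 and 12 of 19 rose, beside the same shares of all genes. Cebpb rose in endothelial-like cells (log2 change 4.22 ± 0.49, adjusted p = 1.33e-15) and fibroblast-like cells (2.44 ± 0.46, adjusted p = 4.85e-06) and did not pass in phagocyte-like cells (1.85 ± 0.65, adjusted p = 0.156). Socs3, the feedback inhibitor of STAT3, rose in all 3, from 1 and 2 UMIs to 119 in endothelial-like, 3 and 23 to 399 in phagocyte-like and 0 and 3 to 163 in fibroblast-like cells. Stat3 and Nfkbiz rose in endothelial-like and fibroblast-like cells and did not pass in phagocyte-like cells. Of 28 receptors and targets of the members' products, 1 of 14, 2 of 19 and 2 of 12 rose, Vcan being among them in each class. These counts are of 1 or 2 genes, and that of endothelial-like cells is at the background of 7.06%. The lipocalin receptor Slc22a17 had 5 or fewer LPS UMIs in each class, and the haemoglobin-haptoglobin receptor Cd163 had 28 in phagocyte-like cells (adjusted p = 0.626).

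Over 19 sums of a library and a class, the genes whose log levels followed Lcn2 most closely were Csf3 (r = 0.959), Cxcl10 (0.958) and Nos2 (0.933), followed by the members Lrg1 and Serpina3f. Saa3 was followed by Cxcl13 (0.95), Ptx3 (0.934) and Pappa (0.924), Serpina3n by Pdk4 (0.929) and Cfb (0.923), Lrg1 by Lcn2, Fosl1 and Bcl3, and Slpi by Trem1 (0.854) and Chil1 (0.822). The sums share libraries, so all of these values describe one LPS library against 2 controls and the differences between classes.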

How the data were processed

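Per the labels, 10x 3' v3 single-cell libraries were made from 2 control pools and 1 LPS pool. The deposited files hold unnormalized UMI counts, which the authors made with Cell Ranger 3.1 on mm10, per the submitters' processing notes; those notes also list R 4.2.1 and Seurat 4.2.0. Barcodes were kept from 500 UMIs and 300 genes upward, with mitochondrial UMIs up to 15%. A doublet caller marked only 6 barcodes and is taken to have failed, so doublets remain. Cells were clustered with scanpy 1.11.5 without the 9 genes and named from marker lists; these rebuilt names can differ from the authors'. UMIs were summed per library and class and tested with edgeR 4.0.16 (quasi-likelihood, TMM, Benjamini-Hochberg over all genes tested, 1 residual degree of freedom), checked on simulated data; DESeq2 1.42.0 was an alternative. The p-values measure only the spread between these libraries, which may be technical. Named genes were the 9 members, up to 6 genes each way per class from the pathway lists (called, a mean of at least 20 CPM and outside both controls) and 10 fixed genes. Members and lists were chosen with earlier results of these data known.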

Additional observations from a re-analysis of the deposited data

Results flagged for a closer look

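Several signals lay in barcodes outside the 4 tested classes of the main clustering, where they enter only the test over all kept barcodes. A sub-cluster of 6 barcodes (19.1), led by Cxcl13, Marco and Lyz2 and left unnamed, held 13445 Saa3 UMIs and 1520 Slpi UMIs in its 5 LPS barcodes, 29.5% and 60.9% of all UMIs of these genes in the library. Its highest marker score was macrophage (3.855), with platelet next (1.261), and each of its 6 barcodes carried C1qa, Csf1r and Lyz2. It was macrophage-like by this score, though the naming rule left it out of the phagocyte-like class and its barcodes were not alike. In order of depth, the LPS barcodes had 0, 1, 389, 1823 and 1372 Cxcl13 UMIs and 0, 0, 10, 431 and 304 Marco UMIs. The control barcode had 0 of both. Their Slpi UMIs were 0, 0, 13, 530 and 977. The macrophage marker Adgre1 was at 0 in the shallowest LPS barcode. Single LPS barcodes there ranged from 273 to 4910 Saa3 UMIs. The 1 control replicate 2 barcode of the sub-cluster carried 24 Saa3 and 1185 Slpi UMIs, so Slpi there was not specific to the LPS library.

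The 35 neutrophil-like cells of the LPS library held 10511 Lcn2, 413 Lrg1, 1500 Hp and 318 Slpi UMIs. The controls had 3 and 1 such cells, with 0 and 3 Lcn2, 1 and 1 Lrg1, 14 and 3 Hp, and 23 and 1 Slpi UMIs, too few cells for a test. The 27 adipocyte-like cells of the LPS library held 1097 Hp UMIs, against 10 in the 14 of control replicate 2 and control replicate 1 had no such cells.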

How the results depend on the processing

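No paired analysis was possible because the labels do not number the controls and there is 1 LPS library. No tested member reversed direction under any alternative, and every tested member kept a higher LPS value without either control (1 library against 1, a value with no test). Without control replicate 2 the endothelial-like log2 differences of Serpina3n, Lrg1, Serpina3g and Hp were 10.25, 8.48, 5.81 and 6.39, that of Serpina3g in phagocyte-like cells 8.76 and that of Hp in fibroblast-like cells 7.77. Saa3 in endothelial-like cells was at 8.16 without control replicate 1 and 4.73 without control replicate 2. In endothelial-like cells 8 members were called; DESeq2's Wald test called 3 (Lcn2, Serpina3f, Serpina3g) and subtracting the free-RNA estimate left 5 (Saa3, Ptx3 and Hp were no longer tested). In phagocyte-like cells 7 became 0 with free RNA subtracted, where edgeR passed 0 of 7899 genes (486 genes and 5 of 6 members at an unadjusted p under 0.05). There 9 of 9 were called with no filter or with macrophage-named sub-clusters alone (Lrg1 at adjusted p = 0.0188 and 0.00615, Serpina3f at 0.00837 and 0.0193), DESeq2's Wald test called 5, and Ptx3 was lost without TMM (adjusted p = 0.0629) and with the gate (0.0550). In fibroblast-like cells 7 became 0 in barcodes under 20% Gm42418, chosen after seeing the data, which left 4, 76 and 30 cells and 0 called genes (794 genes and 7 of 7 members at an unadjusted p under 0.05). In lymphoid-like cells the 1 call became 2 with DESeq2 size factors, without TMM, without haemoglobin and Gm42418, at 25% mitochondrial UMIs or with the marker-count gate, 4 with DESeq2's Wald test and 7 with no low-count filter; with free RNA subtracted the 1 call was Serpina3g instead of Lcn2. The causes were not tested.

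Without TMM the log2 changes shift by -0.10 in endothelial-like and phagocyte-like, -0.45 in fibroblast-like and -1.10 over all barcodes. Calls over all genes, higher and lower, moved from 2130 and 1550 to 843 and 6899 over all barcodes without TMM and to 1043 and 864 with DESeq2. They moved from 446 and 273 to 214 and 391 without TMM, 338 and 154 without the filter, 76 and 70 with DESeq2 and 208 and 112 with free RNA subtracted in fibroblast-like cells. In endothelial-like cells 631 and 615 became 150 and 158 with DESeq2 and 359 and 350 with free RNA subtracted. In phagocyte-like cells 224 and 77 became 277 and 156 with DESeq2 size factors, 99 and 26 without TMM, 247 and 118 without haemoglobin and Gm42418, 59 and 23 with DESeq2, 309 and 175 at 25% mitochondrial UMIs, 240 and 147 with the gate, 51 and 7 in low-Gm42418 barcodes and 190 and 33 with macrophage-named sub-clusters alone (both added later). In lymphoid-like cells 15 and 0 became 78 and 0, 94 and 11, 34 and 0, 503 and 362, 128 and 27, 33 and 0, and 38 and 0 with DESeq2 size factors, without TMM, without haemoglobin and Gm42418, without the filter, with DESeq2, at 25% mitochondrial UMIs and with the gate, and 346 and 165 with free RNA subtracted.

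Depth limits the low members: a class with 0 UMIs allows up to 43.7 CPM in fibroblast-like cells of control replicate 1 and 11.3 in its endothelial-like cells.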
